A study of Mus musculus with 12 samples.

Results

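Voltage-gated calcium and sodium channels set how neurons fire and how they turn a spike into a calcium signal. A calcium channel is built around a pore-forming alpha1 subunit (L-type channels from the Cav1 genes, the presynaptic P/Q-, N- and R-type channels from the Cav2 genes, and low-voltage T-type channels from the Cav3 genes), with an alpha2delta subunit that brings it to the surface and a cytoplasmic beta subunit that stabilises it. A sodium channel is built around a Nav alpha subunit, which carries the rising phase of the action potential, with Nav beta subunits that tune its gating and act as adhesion molecules. Most of the proteins named calcium channel gamma subunits are transmembrane AMPA receptor regulatory proteins (TARPs), which escort AMPA-type glutamate receptors to the synapse.

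The genes described here are the protein-coding genes of the count table whose mouse symbol, found from the Entrez ID, starts with *Cacna1* or *Cacna2d* or is a numbered *Cacnb*, *Cacng* or *Scn* symbol. The rule uses names only, and it found 40 genes of 27179 gene IDs, 20979 of which are protein-coding in RefSeq. They comprise 4 Cav1, 3 Cav2 and 3 Cav3 alpha1 genes, 4 alpha2delta genes, 4 beta genes, 6 TARP gamma genes, 2 other gamma genes, 10 Nav alpha genes and 4 Nav beta genes. Of the 40, 37 passed the filter on low counts (0.2 CPM or more in 2 or more mice, CPM being the count scaled to the same library size in every mouse), as did 17937 gene IDs in all.

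RNA was measured in whole hippocampus from 12 mice aged 3 months. The series compares *Nell-1+/6R* mice, heterozygous for the ENU-induced 6R loss-of-function allele of *Nell1* in every cell of the body, with wildtype (WT) littermates, to see what the loss of a *Nell1* copy does to the brain. There were 3 females and 3 males of each genotype, and each library is taken to be 1 mouse. Homozygous 6R mice die at birth, so the model is haploinsufficiency and not absence of Nell-1, a secreted protein first cloned from brain.

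Counts summed to between 10834905 and 16016317 per mouse, and the 40 channel genes held 0.409% to 0.463% of them. *Nell1* itself (chromosome 7) did not overlap between the genotypes, with a mean of 19.1 CPM (SD 1.77) in the 6 *Nell-1+/6R* mice and 36.5 CPM (SD 4.55) in the 6 WT mice, a log2 fold change of -0.93. Markers of hippocampal cells and of neighbouring tissue were all detected, though *Asmt*, *Ckm* and *Tnnt3* were at 0 in some mice. The share of all genes at an unadjusted p under 0.05 between the genotypes was 3.26%. Of 10 hippocampal principal neuron markers, 3 were higher (*Fibcd1*, *Grik4* and *Spink8*, by 0.23 to 0.25 on the log2 scale) and 1 was lower (*C1ql2*, -0.33) in *Nell-1+/6R* mice at that p, and of 7 GABAergic neuron markers 2 were higher (*Pvalb*, 0.29, and *Sst*, 0.20). The other principal neuron markers gave from -0.23 (*Prox1* and *Dsp*) to 0.26 (*Nectin3*). The summed level ran from 845 to 919 CPM in WT and from 814 to 953 CPM in *Nell-1+/6R* mice for the principal neuron markers, and from 539 to 619 and from 566 to 672 CPM for the GABAergic ones. The principal neuron list pools CA1, CA3 and dentate markers, so shifts in opposite directions can cancel in its sum. None of 5 astrocyte, 5 oligodendrocyte and 4 choroid plexus markers passed. The summed choroid plexus level differed widely between mice of either genotype, from 49.0 to 4530 CPM in WT and from 38.6 to 5040 CPM in *Nell-1+/6R* mice. Of 3 pineal markers 2 were lower (*Tph1* and *Asmt*), at summed levels of 0.93 to 7.72 CPM in WT and 0.767 to 1.76 CPM in *Nell-1+/6R* mice. The third, *Aanat*, gave a log2 fold change of 0.12. *Tph1* had a WT median of 0.415 CPM and a highest WT value of 5.87 CPM, beside a *Nell-1+/6R* median of 0.305 CPM. The summed level of 5 leptomeningeal fibroblast markers ran from 45.2 to 107 CPM in WT and from 22.6 to 65.6 CPM in *Nell-1+/6R* mice, with 4 of 5 lower. That of 5 mural cell markers ran from 45.6 to 107 CPM in WT and from 30.4 to 60.9 CPM in *Nell-1+/6R* mice. Of these, 3 of 5 were lower (*Acta2* -1.17, *Myh11* -1.01 and *Tagln* -0.88), while *Rgs5* gave 0.08 and *Kcnj8* -0.03. Of 8 thalamus and habenula markers only *Slc17a6* passed (log2 fold change -1.23), and the other 7 gave from -0.41 (*Tnnt1*) to 0.26 (*Calb2*). *Slc17a6* was also the only one of these markers to pass adjustment over all genes (edgeR adjusted p = 0.00347). The part of these markers in the values below was not tested. In tissue RNA, fewer cells of a type and less RNA per cell cannot be told apart. The first principal component over the genes other than the channel genes held 41.8% of the variance between mice, with *Nell-1+/6R* female replicate 1 at 1.96 on one end and *Nell-1+/6R* male replicate 3 at -1.68 on the other. Results without either mouse are given below for some genes only.

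The sodium channel alpha genes are close copies of each other, which matters for reads of 50 bases, and *Scn1a*, *Scn2a*, *Scn3a*, *Scn7a* and *Scn9a* lie in a cluster on chromosome 2. Over whole transcripts (GENCODE M21, GRCm38) the overlap is small: 4.03% of the distinct 50-base stretches of *Scn1a* also occur in another gene, against 5.76% for *Scn2a*, 6.49% for *Scn3a* and 4.16% for *Scn9a*. Among the calcium channel genes the highest shares were 16.3% for *Cacna1s* (with the gene model *Gm37759*) and 15.0% for *Cacnb4* (with *A430018G15Rik*). The sources used here do not say how such reads were counted, and the values of these genes carry that uncertainty.

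Levels were compared between genes as CPM per kilobase of exon, for the 38 channel genes described here by name. *Cacng8*, the TARP known for its abundance in hippocampus, ran from 64.3 to 94.3 CPM per kilobase over the 12 mice. Close to it came *Scn2b*, a Nav beta subunit gene, at a mean of 78.0 CPM per kilobase, and the calcium channel beta subunit gene *Cacnb3* at 69.7. The ranges of neighbours in this order overlapped for 34 of 37 pairs, the exceptions being *Cacnb3* over *Scn3b* (mean 51.0 CPM per kilobase), *Scn3b* over *Scn8a* (mean 33.1 CPM per kilobase) and, among the weakly expressed genes, *Cacng6* over *Cacna2d4*, so most adjacent ranks do not differ beyond their spread.

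**Figure D1:**
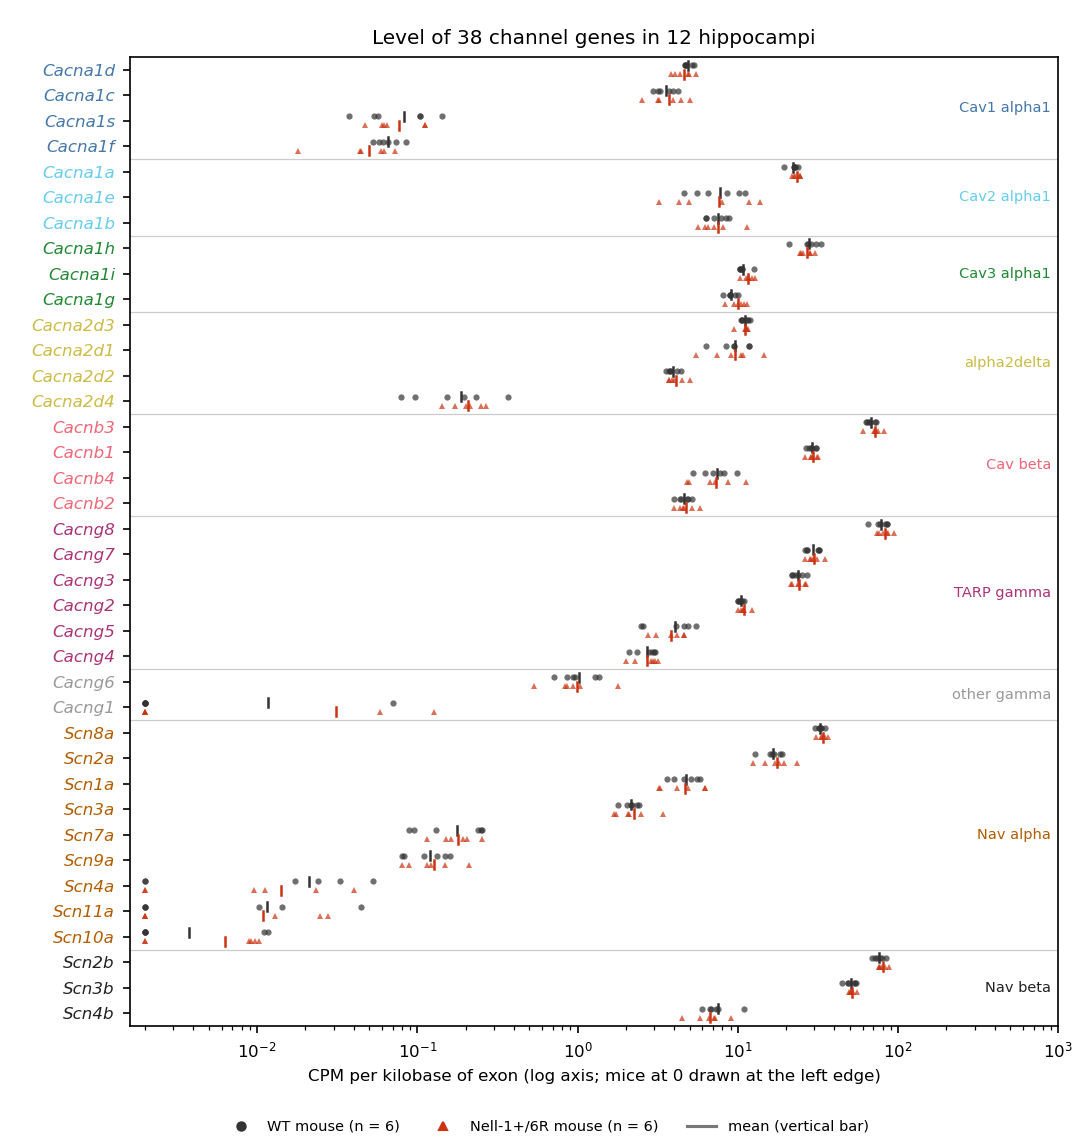
Level of each of 38 channel genes in single mice, as CPM per kilobase of exon on a log axis, with WT mice as dark circles, *Nell-1+/6R* mice as red triangles and short vertical bars for the means (n = 6 each); mice with a count of 0 are drawn at the left edge. The genotypes overlap along the whole range of levels.

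Within families, a single gene usually held most of the level. Among pore-forming calcium channel genes, *Cacna1d* (Cav1.3) held 57.1% ± 2.53 (SD, n = 6) of the summed Cav1 level per kilobase in WT and *Cacna1c* (Cav1.2) 41.2% ± 2.72 (SD, n = 6), while *Cacna1s* of skeletal muscle and *Cacna1f* of the retina each had a mean under 1%. *Cacna1a* (the P/Q-type pore) held 59.7% ± 5.68 (SD, n = 6) of the Cav2 sum, and *Cacna1h* 58.1% ± 4.32 (SD, n = 6) of the Cav3 sum. *Scn8a* (Nav1.6, the channel of mature axon initial segments and nodes) held 57.5% ± 2.81 (SD, n = 6) of the Nav alpha sum, ahead of *Scn2a* (Nav1.2) at 29.1% ± 2.20 (SD, n = 6), *Scn1a* (Nav1.1, the main channel of fast-spiking interneurons) at 8.38% ± 1.02 (SD, n = 6) and *Scn3a* (Nav1.3, mostly embryonic) at 3.79% ± 0.185 (SD, n = 6). The sensory neuron gene *Scn9a* held 0.210%. Over all 12 mice, *Cacna2d3* held 44.8% and *Cacna2d1* 38.0% of the alpha2delta sum, *Cacnb3* 62.9% of the beta sum and *Cacng8* 53.2% of the TARP sum. In *Nell-1+/6R* mice the corresponding shares were 54.8% for *Cacna1d*, 61.9% for *Cacna1a*, 55.3% for *Cacna1h*, 57.8% for *Scn8a* and 29.5% for *Scn2a*. With the longest annotated transcript in place of all exons, all 9 role groups kept their highest member. For Cav1 the shares over the 12 mice were then close, 51.0% for *Cacna1d* and 47.6% for *Cacna1c*. In CPM without division by length *Cacna1c* was the higher, at a WT mean of 75.1 CPM against 61.7 CPM for *Cacna1d*. The order of these 2 genes thus depends on the length used.

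Expression of the peripheral channels was at the limit of detection. *Scn10a* (Nav1.8) had 6 counts over the 12 mice, *Scn11a* (Nav1.9) 10 and *Cacng1*, a skeletal muscle subunit, 4, so these 3 genes fell outside the filter and were not tested. The tested genes of fewest counts were *Scn4a* of skeletal muscle with 19, which reached 0.2 CPM in 3 mice, and *Cacna1s* with 82, which reached it in all 12. *Scn4a* gave a log2 fold change of -0.48 whose 95% interval ran from -2.48 to 1.51, so nothing can be read from it at this depth, and *Cacna1s* gave -0.11 with an interval from -0.92 to 0.70.

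The genotypes were then compared for each channel gene, to ask whether the 6R allele goes with a change in channel expression. No channel gene passed a test for a difference between the genotypes: 0 of 37 passed an unadjusted p under 0.05 in the quasi-likelihood test of edgeR (model of sex and genotype), where 584 of 17937 genes did (3.26%). The counts were also 0 of 37 in limma-voom and in DESeq2. None passed the study's own rule of p under 0.05 with a fold change above 1.5, which 261 genes passed (1.46%), none passed an adjusted p under 0.05, which 7 genes passed (0.039%), and for none did the 6 WT and 6 *Nell-1+/6R* mice fail to overlap, as they did for 27 genes (0.151%). The adjusted p was 1.0 for the channel gene that came nearest. The median log2 fold change of the 37 genes was 0.02, beside -0.0009 over all genes tested, with 22 estimates above 0 and 15 below.

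The data bound the effect rather closely. Of the 29 channel genes with a mean of at least 100 counts per mouse, 28 had a 95% interval that lay within a 1.5-fold change in either direction, and 15 had one that lay within 1.2-fold. Their estimates ran from -0.17 (*Scn4b*) to 0.14 (*Cacna1g*) on the log2 scale. The exception was *Cacna1e*, the R-type pore gene, with an interval from -0.74 to 0.67. The 8 genes of lower count had wider intervals, none of which excluded a 1.5-fold change in both directions.

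**Figure D2:**
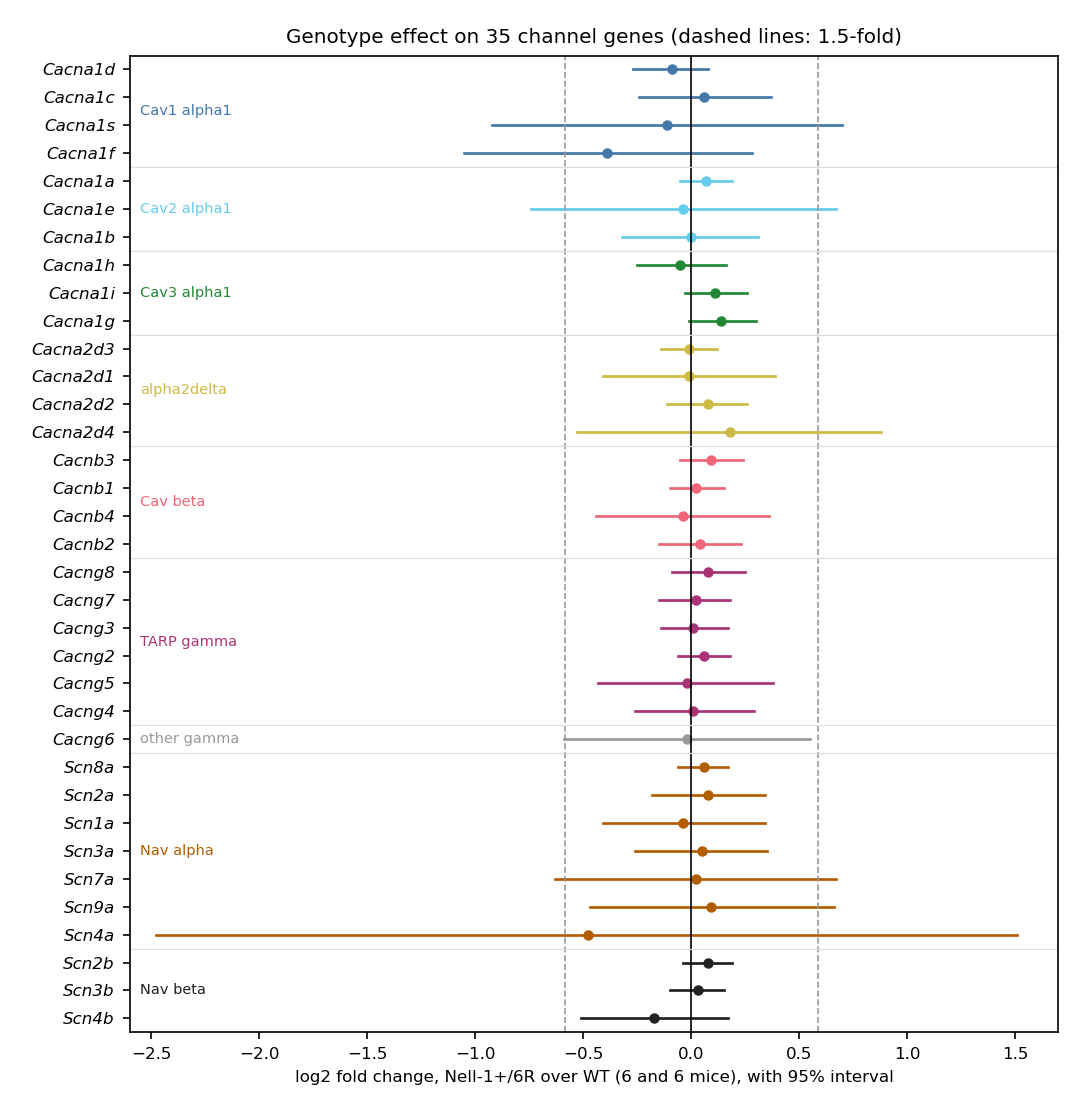
Log2 fold change of *Nell-1+/6R* over WT (points) with its 95% interval (bars) for 35 of the channel genes tested, grouped and coloured by role; dashed lines mark a 1.5-fold change. Every interval includes 0, and the wide ones belong to the genes with few counts and to *Cacna1e*.

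Among the L-type genes, *Cacna1d* ran from 58.6 over a median of 60.0 to 67.3 CPM in WT mice. The *Nell-1+/6R* mice ran from 48.4 over a median of 58.3 to 69.5 CPM, so they spread to both sides of the WT range. The log2 fold change was -0.09 (95% interval -0.27 to 0.08), and that of *Cacna1c*, the other abundant L-type gene, 0.06 (-0.24 to 0.37). *Cacna1f* gave -0.39 (-1.05 to 0.28) from 84 counts in all.

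For the presynaptic channels, *Cacna1a* ran from 223 over a median of 257 to 271 CPM in WT and from 249 over 269 to 280 CPM in *Nell-1+/6R* mice. Apart from WT female replicate 1, which was lowest, the mice of both genotypes lay in the same band. The log2 fold change of *Cacna1a* was 0.07 (-0.05 to 0.19) and that of *Cacna1b*, the N-type pore, 0.00 (-0.32 to 0.31).

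The 2 smallest p-values of the set belonged to T-type genes, *Cacna1g* and *Cacna1i*. *Cacna1g* (Cav3.1; chromosome 11, 94408391 to 94474400, minus strand) ran from 82.0 over a median of 90.9 to 102 CPM in WT and from 84.5 over 103 to 115 CPM in *Nell-1+/6R* mice. The higher genotype median came with overlapping ranges, and the log2 fold change was 0.14 (-0.01 to 0.30; edgeR unadjusted p = 0.0634, adjusted p = 1.0). Without *Nell-1+/6R* female replicate 1 the estimate was 0.19 (edgeR unadjusted p = 0.0127), and without WT female replicate 3 it was 0.19 (edgeR unadjusted p = 0.014), so the side of 0.05 on which it fell depended on single mice. *Cacna1i* (Cav3.3; chromosome 15, 80287238 to 80398292, plus strand) ran from 101 over a median of 103 to 124 CPM in WT and from 102 over 115 to 126 CPM in *Nell-1+/6R* mice, with a log2 fold change of 0.11 (-0.03 to 0.26; edgeR unadjusted p = 0.114). WT female replicate 3, at 124 CPM, stood apart from the other WT mice at 101 to 104 CPM. Without that mouse the estimate for *Cacna1i* was 0.17 (edgeR unadjusted p = 0.00855), and without *Nell-1+/6R* female replicate 3 it was 0.15 (edgeR unadjusted p = 0.0418). *Cacna1h* (Cav3.2), the highest of the T-type genes per kilobase, ran from 203 over a median of 273 to 320 CPM in WT and from 239 over 262 to 297 CPM in *Nell-1+/6R* mice, a log2 fold change of -0.05 (-0.25 to 0.16), so the 3 T-type genes did not share a direction.

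No gene of an auxiliary calcium channel subunit passed the test. *Cacna2d3*, the highest alpha2delta gene per kilobase, ran from 90.6 over a median of 96.1 to 104 CPM in WT and from 82.0 over 98.1 to 101 CPM in *Nell-1+/6R* mice. Its log2 fold change was -0.01 (-0.14 to 0.12), and that of *Cacna2d1*, the alpha2delta subunit that gabapentin binds, -0.01 (-0.41 to 0.39). *Cacna2d2* gave 0.08 (-0.11 to 0.26) and the weakly expressed *Cacna2d4* 0.18 (-0.53 to 0.88). *Cacnb3* ran from 253 over a median of 265 to 293 CPM in WT and from 241 over 289 to 325 CPM in *Nell-1+/6R* mice, with a log2 fold change of 0.09 (-0.05 to 0.24). It passed an unadjusted 0.05 only without *Nell-1+/6R* female replicate 3 (log2 fold change 0.14, edgeR unadjusted p = 0.0307) among the alternatives run. The other beta genes gave log2 fold changes of 0.02 (*Cacnb1*), 0.04 (*Cacnb2*) and -0.04 (*Cacnb4*).

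The TARP genes, which act on AMPA receptors, lay between -0.02 and 0.08 on the log2 scale. *Cacng8* ran from 151 over a median of 188 to 201 CPM in WT and from 173 over 195 to 221 CPM in *Nell-1+/6R* mice, with a log2 fold change of 0.08 (-0.09 to 0.25). *Cacng2* (stargazin) was among the steadiest of the channel genes between mice, with a mean of 57.2 CPM (SD 2.03, n = 6) for WT and of 59.8 CPM (SD 4.15, n = 6) for *Nell-1+/6R*, and with a log2 fold change of 0.06 (-0.06 to 0.18). *Cacng3*, *Cacng4* and *Cacng7* gave 0.01, 0.01 and 0.02, and *Cacng5* -0.02 over both sexes. *Cacng6*, a gamma subunit that is no TARP, ran from 1.41 over a median of 1.88 to 2.69 CPM in WT and from 1.06 over 1.76 to 3.53 CPM in *Nell-1+/6R* mice (log2 fold change -0.02, interval -0.59 to 0.55).

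Sodium channel genes did not pass the test either. *Scn8a* ran from 474 over a median of 509 to 554 CPM in WT and from 481 over 532 to 578 CPM in *Nell-1+/6R* mice, a log2 fold change of 0.06 (-0.06 to 0.17). *Scn2a* gave 0.08 (-0.18 to 0.34), *Scn1a* -0.04 (-0.41 to 0.34) and *Scn3a* 0.05 (-0.26 to 0.35). Of the weakly expressed alpha genes, the sodium sensor gene *Scn7a* gave 0.02 (-0.63 to 0.67) and *Scn9a* 0.09 (-0.47 to 0.66). *Scn2b* gave 0.08 (-0.04 to 0.19), *Scn3b* 0.03 (-0.10 to 0.15) and *Scn4b* -0.17 (-0.51 to 0.17).

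*Cacng3*, *Cacng6*, *Cacng7* and *Cacng8* lie on chromosome 7, as *Nell1* does. The cluster of *Cacng6*, *Cacng7* and *Cacng8* lies 46.5 to 46.6 Mb from *Nell1* and *Cacng3* 71.8 Mb. None of the 4 passed an unadjusted p under 0.05.

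The balanced design also allowed the genotype effect to be compared between females and males. *Cacng5* (chromosome 11, 107874604 to 107915055, minus strand), a TARP-family gene, and *Cacna1i* were the 2 channel genes of 37 at an unadjusted interaction p under 0.05, where 555 of 17937 genes were (3.09%), and no gene at all passed an adjusted p of 0.05. *Cacng5* was 17.6, 18.7 and 21.1 CPM in the WT males and 11.9, 14.7 and 16.0 CPM in the *Nell-1+/6R* males. In the females it was 9.53, 9.82 and 15.8 CPM in WT and 10.5, 17.6 and 17.7 CPM in *Nell-1+/6R* mice, so the genotypes separated in males and overlapped in females. The log2 fold change was -0.43 in males and 0.39 in females, a difference of -0.81 (male minus female, 95% interval -1.50 to -0.13; edgeR unadjusted p = 0.0235, adjusted p = 0.986). The call rested on single mice: the interaction p of *Cacng5* rose to between 0.0504 and 0.0622 without *Nell-1+/6R* female replicate 1 or 3, WT female replicate 1 or 3, *Nell-1+/6R* male replicate 3 or WT male replicate 1, and it fell when a female replicate 2 was left out (edgeR unadjusted p = 0.00255 for WT, edgeR unadjusted p = 0.00352 for *Nell-1+/6R*).

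*Cacna1i* was 101, 102 and 104 CPM in the WT males and 115, 121 and 126 CPM in the *Nell-1+/6R* males. In females it was 102, 104 and 124 CPM in WT and 102, 111 and 114 CPM in *Nell-1+/6R* mice. The male genotypes did not overlap, with a log2 fold change of 0.24 in males and -0.02 in females (difference 0.26, 95% interval 0.00 to 0.52; edgeR unadjusted p = 0.049, adjusted p = 0.986). Without WT female replicate 3, the mouse at 124 CPM, the difference was 0.16 (edgeR unadjusted p = 0.149), and the p also rose above 0.05 without *Nell-1+/6R* female replicate 1 or 3, *Nell-1+/6R* male replicate 2 or 3, or any WT male (between 0.0643 and 0.105 for these). In limma-voom and DESeq2 the unadjusted p of *Cacna1i* lay at 0.055 and 0.0539.

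*Cacna1g* was 90.5, 90.7 and 97.1 CPM in WT males and 101, 111 and 115 CPM in *Nell-1+/6R* males, again without overlap, and its log2 fold change was 0.23 in males (edgeR unadjusted p = 0.0371) and 0.06 in females. The difference between the sexes for *Cacna1g* was 0.17 (edgeR unadjusted p = 0.236), so a sex difference was not shown. Together with *Cacna1i* (edgeR unadjusted p = 0.0131) it made 2 of 37 channel genes at an unadjusted p under 0.05 in males, against 3.38% of all genes, while in females 0 of 37 passed, against 2.84%. The 3 and 3 males did not overlap for 6 of 37 channel genes (*Cacna1g*, *Cacna1i*, *Scn8a*, *Cacng2*, *Cacng5* and *Cacng6*), against 10.4% of all genes tested, and the females for 0 of 37, against 6.0%.

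**Figure D3:**
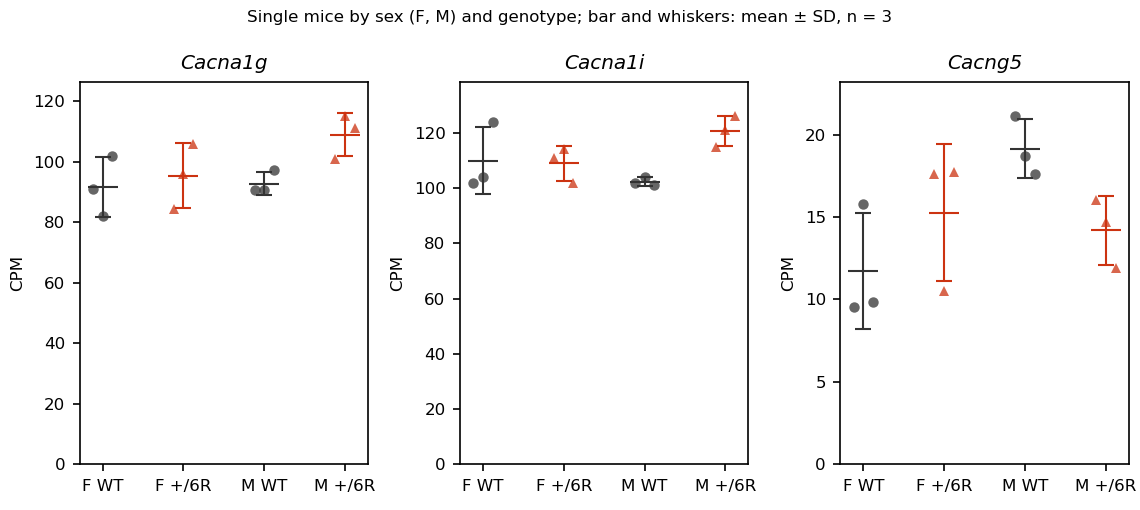
CPM of *Cacna1g*, *Cacna1i* and *Cacng5* in single mice by sex and genotype, with mean and SD (n = 3 per group). In males the 2 genotypes separate for each gene, upward for *Cacna1g* and *Cacna1i* and downward for *Cacng5*, and in females they overlap.

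Sex by itself separated no channel gene. In the model of sex and genotype, 0 of 37 had an unadjusted p under 0.05 in edgeR, where 848 of all genes tested did (4.73%), and 6 genes of all passed an adjusted p under 0.05, none of them a channel gene. The smallest channel gene p was 0.106, that of *Scn2a*, at a log2 difference (male minus female) of 0.21. Without WT female replicate 3 the count was 4 (*Scn2a*, *Cacna2d1*, *Cacna1g* and *Cacng4*), and without *Nell-1+/6R* female replicate 3 it was 2 (*Scn2a* and *Cacnb4*).

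Proteins that anchor, traffic or modulate these channels were examined alongside. The list held 55 symbols, 53 of which were matched and tested, among them ankyrins, intracellular fibroblast growth factors, calmodulins, presynaptic scaffold proteins and thrombospondins. At an unadjusted p under 0.05, 1 of 53 was higher and 0 were lower in *Nell-1+/6R* mice, against 3.26% of all genes, and the median log2 fold change of the list was 0.03. The gene was *Stac*, whose protein helps L-type channels reach the membrane and resist inactivation. *Stac* ran from 5.68 over a median of 6.37 to 7.34 CPM in WT and from 6.57 over 8.35 to 9.37 CPM in *Nell-1+/6R* mice, so the ranges overlapped while most *Nell-1+/6R* values lay above the WT range. Its log2 fold change was 0.32 (95% interval 0.07 to 0.58; edgeR unadjusted p = 0.0155, adjusted p = 1.0), and with each mouse left out it stayed between 0.28 and 0.38. Next in order of p were *Thbs2*, which like *Thbs1* encodes a synapse organiser secreted by astrocytes (*Thbs2* log2 fold change -0.35, interval -0.71 to 0.00) and *Thbs1* (-0.62, interval -1.30 to 0.06). With each mouse left out, *Thbs2* ran from -0.45 (without *Nell-1+/6R* female replicate 3) to -0.23 (without WT male replicate 2). *Thbs1* ran from -0.78 (without WT female replicate 3) to -0.40 (without WT male replicate 2). The edgeR unadjusted p of both fell under 0.05 without *Nell-1+/6R* female replicate 1 or 3 or WT female replicate 3. It also did so for *Thbs2* without WT male replicate 3 and for *Thbs1* without WT male replicate 1. *Thbs1* gave -1.23 in males and -0.07 in females, a difference (male minus female) of -1.16 that did not pass the interaction test (edgeR unadjusted p = 0.0591, adjusted p = 0.986). The partner count rose to 8 without *Nell-1+/6R* female replicate 3, to 5 without WT male replicate 1, to 3 without *Nell-1+/6R* female replicate 1 or WT female replicate 3, and to 2 without WT female replicate 1, *Nell-1+/6R* male replicate 3 or WT male replicate 3.

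Several channel genes varied widely between mice of the same genotype, and many of them moved together. *Cacna1e* (chromosome 1, 154390806 to 154884785, minus strand) was the most variable of the 29 well-counted channel genes, with a CV of 43.9% over the 12 mice, ahead of *Cacnb4* at 26.7% and *Cacna2d1* at 26.4%. It ran from 116 over a median of 190 to 280 CPM in WT and from 81.6 over 163 to 348 CPM in *Nell-1+/6R* mice, so each genotype held both low and high mice. *Scn1a* ran along with it, from 40.2 over 54.2 to 64.4 CPM in WT and from 35.9 over 50.5 to 69.7 CPM in *Nell-1+/6R* mice.

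To measure this, the log2 level of *Cacna1e* was correlated with that of every other gene tested over the 12 mice after the mean of each genotype had been removed (*Cacna1e* was chosen after its spread had been seen). Sex was not removed. Pearson's r was 0.8 or more for 10 of the other 36 channel genes, which is 27.8%, against 11.6% of all genes. These were *Scn1a* (r = 0.978, Spearman's rho = 0.972), *Cacna1c* (r = 0.968, rho = 0.951), *Cacna1b*, *Cacna1d*, *Cacna2d1*, *Cacnb2*, *Scn2a*, *Scn3a*, *Cacnb4* and *Scn8a* (r = 0.807, rho = 0.832). Over the 10, the permutation p of r adjusted over all genes was at most 0.00768 and that of rho at most 0.00917 (100000 permutations). Without the 2 mice farthest from the median of *Cacna1e* (*Nell-1+/6R* female replicate 1 and *Nell-1+/6R* male replicate 3), r stayed at 0.8 or more for 6 of the 10 and was lowest, at 0.627, for *Scn8a*. The 10 correlations were positive within each genotype, from 0.655 upward in WT and from 0.900 upward in *Nell-1+/6R* mice (n = 6 each). In the fit of sex and genotype, the log2 difference (male minus female) was 0.30 for *Cacna1e*. For the 10 genes it ran from 0.06 (*Scn8a*) to 0.31 (*Cacna2d1*). None of these sex differences had an unadjusted p under 0.05. *Scn1a*, *Scn2a* and *Scn3a* share some sequence with each other, as given above.

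**Figure D4:**
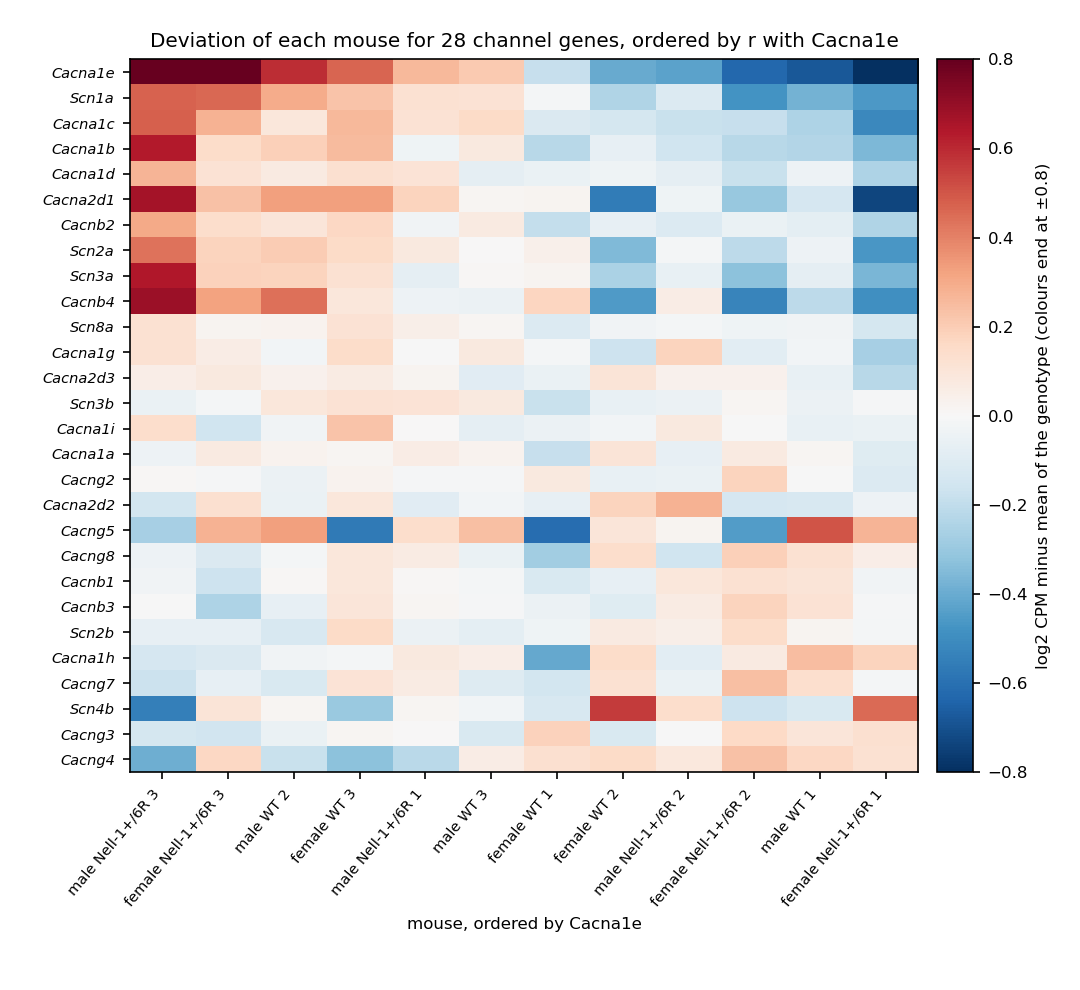
Deviation of log2 CPM from the mean of the genotype for each mouse (columns, ordered by *Cacna1e*) and each of 28 channel genes with a mean of at least 100 counts (rows, ordered by r with *Cacna1e*); red is above and blue below the mean, and colours end at ±0.8. The upper rows, from *Cacna1e* to *Scn8a*, change from red to blue together, and mice of both genotypes lie on both sides.

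The genes that moved most closely with *Cacna1e* have transcripts of lower median GC content than the genes at r of 0 or less. For the 10 genes at r of 0.8 or more, the GC content of the longest annotated transcript ran from 39.0% over a median of 43.3% to 52.9%, and for the 18 genes at r of 0 or less from 50.5% over a median of 54.6% to 65.1%. The median lengths of these transcripts were 9.25 and 4.18 kb. The longest transcript is not always the channel mRNA. That of *Cacnb2*, at 39.0%, has no annotated coding part, and that of *Cacna1d* holds 1539 coding bases of 9658. Over coding bases, where annotated, GC content ran from 43.4% (*Cacna2d1*) to 55.6% (*Cacna1b*) for the 10 genes. For the 18 genes it ran from 51.6% (*Scn4b*) to 66.7% (*Cacng8*). Across the 36 genes, r with *Cacna1e* and GC content had a Pearson correlation of -0.702, beside -0.539 across 16899 other genes with a known transcript, as a description over genes that share the same 12 libraries. Genes of few counts are among the 18 and the 36, such as *Scn4a* (19 counts over the 12 mice), *Cacna1s* (82) and *Cacna1f* (84). Little can be read from their r (-0.0239, -0.0387 and -0.0446) at this depth. The 10 genes all had a mean of at least 100 counts per mouse, and the part of depth was not tested. Genes between these sets lay at low and at high GC content. *Scn9a* (GC 42.4%), *Cacna2d3* (GC 49.1%), *Scn7a* (GC 40.2%) and *Scn3b* (GC 47.8%) had r of 0.735, 0.544, 0.373 and 0.311. T-type *Cacna1g* (GC 58.1%) and *Cacna1i* (GC 59.3%) had r of 0.623 and 0.229. *Cacna1a* (GC 58.4%) and *Cacng2* (GC 51.2%) had r of 0.214 and 0.0422.

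**Figure D5:**
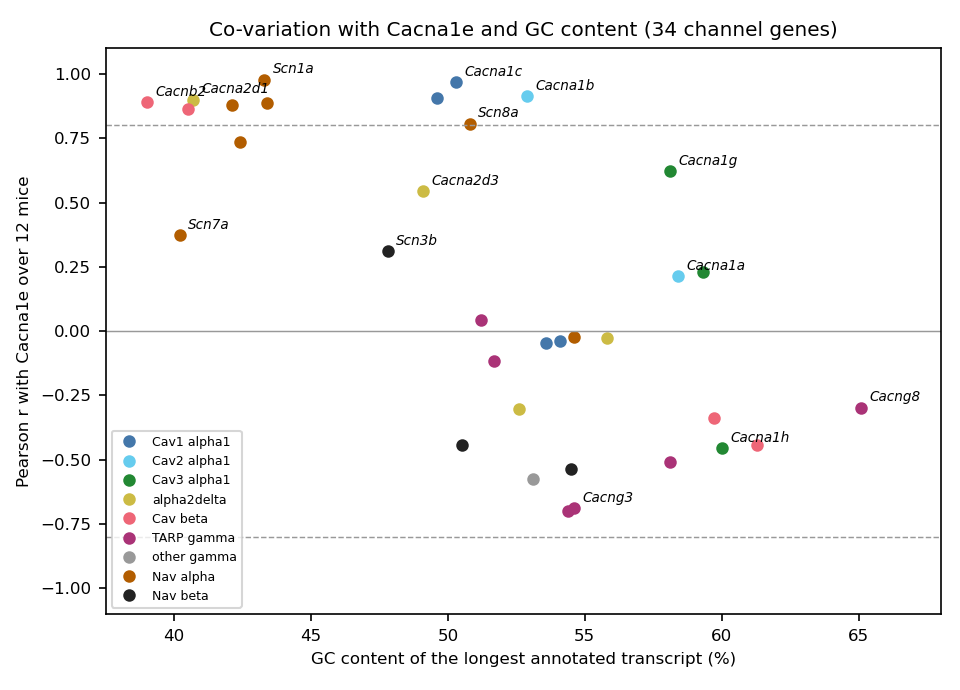
Pearson's r with *Cacna1e* over the 12 mice (genotype means removed) against the GC content of the longest annotated transcript, for 34 channel genes coloured by role; dashed lines mark r of 0.8 and -0.8. Genes at r of 0.8 or more lie at 39.0% to 52.9% GC.

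The level of *Cacna1e* also went with measures of the whole library. Among 16 such relations, it had an r of -0.939 (rho = -0.923; adjusted permutation p = 0.00032 for r and 0.00064 for rho; r = -0.900 without the 2 mice farthest from the median) with the first principal component of the other genes. With the summed level of 5 astrocyte markers r was 0.908 (rho = 0.930; adjusted permutation p = 0.00056 and 0.00064; r = 0.875 without 2 mice), and with that of 5 oligodendrocyte markers -0.855 (rho = -0.818; adjusted permutation p = 0.00187 and 0.00955; r = -0.709 without 2 mice). All 5 astrocyte markers were detected, with sums of 3240 to 4240 CPM in WT and 2930 to 4350 CPM in *Nell-1+/6R* mice, as were all 5 oligodendrocyte markers, with sums of 3570 to 5900 CPM in WT and 2790 to 6160 CPM in *Nell-1+/6R* mice. Single genes made up most of both sums, *Slc1a2* 66.4% of the astrocyte sum and *Mbp* 68.4% of the oligodendrocyte sum over the 12 mice. None of the other 13 relations passed an adjusted p of 0.05 in r, among them total counts (r = 0.233) and the pooled markers of hippocampal principal neurons (r = -0.238). The part of sex, GC content, transcript length or cell make-up in this co-variation was not tested.

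With that component as a further covariate, the median width of the 95% interval of the channel genes fell from 0.52 to 0.30 on the log2 scale. Then 3 of 37 channel genes had an unadjusted p under 0.05, against 5.85% of all genes: *Cacna1d* at -0.11 (edgeR unadjusted p = 0.0193), *Cacna1g* at 0.13 (edgeR unadjusted p = 0.0219) and *Cacna1e* at -0.22 (edgeR unadjusted p = 0.05 when rounded). The smallest adjusted p among the channel genes was 0.765, so no channel gene was called in this fit either.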

How the data were processed

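Hippocampal RNA of 12 mice was sequenced as single reads of 50 bases. Per the labels and the study's methods, the authors aligned reads to mm10 with HISAT2 2.1.0 and deposited raw counts per Entrez gene ID from featureCounts. The sources used here give no strand setting, so reads of a gene and of its antisense partner cannot be told apart. Symbols came from RefSeq (GRCm38.p6) for 25275 of 27179 IDs and from GENCODE M21 for 18. Titles of the WT samples hold the abbreviation for heterozygous, and the genotype field was used.

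Genes at 0.2 CPM or more in 2 or more mice were tested with edgeR 4.0.16 (R 4.3.3; TMM factors, quasi-likelihood, sex and genotype) with Benjamini-Hochberg adjustment over all of them. CPM values use TMM-scaled library sizes, and levels per kilobase use the union of GENCODE exons. Correlations use log2(CPM + 0.5). Tables and figures were made in Python 3.11.15 (scipy 1.17.1, pandas 2.3.3). Results for 2 of the 40 channel genes are not reported here, and counts over the set include them. The fits were tested on simulated data. The genes and lists were chosen with earlier results of these data known. Described in full were the highest reported gene per kilobase of most roles, genes with an unadjusted interaction p under 0.05, those nearest the filter by total counts and the partner genes of smallest p. Other genes named were chosen after their values were seen. Alternatives were limma-voom (limma 3.58.1) and DESeq2 1.42.0, other scaling factors, filters and models, single sexes, the replicate number as a block and each mouse left out. Replicates differed by more than sampling noise, so none was counted as a duplicate, and p-values measure the spread between these mice.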

Additional observations from a re-analysis of the deposited data

Results flagged for a closer look

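The genotype effect on *Cacng5* and on *Cacna1i* differed between the sexes at an unadjusted interaction p under 0.05 (edgeR), by -0.81 and 0.26 on the log2 scale (male minus female), and neither passed adjustment over all genes.

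A single mouse stood apart from the other 5 of its genotype in 4 of the 68 groups of 6 checked, where about 3.4 are expected by chance at 1 in 20. *Cacna1a* was 223 CPM in WT female replicate 1 against 256 to 271 CPM in the other WT mice. *Cacna1i* was 124 CPM in WT female replicate 3 against 101 to 104 CPM. *Scn4b* was 54.5 CPM in WT female replicate 2 against 29.8 to 37.2 CPM. *Cacna2d3* was 82.0 CPM in *Nell-1+/6R* female replicate 1 against 97.0 to 101 CPM in the other *Nell-1+/6R* mice.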

How the results depend on the processing

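The count of channel genes past p under 0.05 with 1.5-fold and the counts past adjusted p were 0 for genotype as reported and in all 25 alternatives, and the highest gene per kilobase was the same in all 9 roles with the other length. At an unadjusted p under 0.05 for genotype the count moved from 0 to 3 in males alone (*Cacna1g*, *Cacna1i* and *Cacng5*), to 3 with the first component as covariate (chosen after seeing the data) and to between 0 and 2 with each mouse left out. With the replicate number as a block it was 1 (*Cacna1g*, 0.14, edgeR unadjusted p = 0.0475). Same-numbered mice had r from -0.204 to 0.238 in 6 pairs, and same-sex mice of unlike number from -0.365 to 0.257, so the number marked no shared deviation. The sources used here do not say which mice came from the same litter, so a shared litter or batch was not tested. For the interaction the count was 1 in limma-voom and 1 in DESeq2 against 2, and 0 to 4 with each mouse left out. For sex it was 0 to 4, and for the partner genes 1 to 8, with each mouse left out. Of 918 values of single channel genes under an alternative, 101 changed sign with p at 0.05 or above on both sides. Another 12, in 6 genes, fell under an unadjusted p of 0.05. No channel gene was called in the reported fit, so there was no call to reverse. The cause of these shifts was not tested. Depth limits *Scn4a*, *Cacna1s* and *Cacna1f*, which had only a few counts per mouse.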
